A study of Mus musculus with 8 samples.

Results

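The 8 genes described here encode enzymes that make or interconvert proline, alanine, aspartate, asparagine, glutamine and glutamate. They are Aldh18a1, Pycr1, Gpt2, Got1, Got2, Asns, Glul and Glud1, each found by its symbol in a table of 39179 genes, and all 8 were among the 13626 genes with enough counts to be tested. They were chosen by name with their values in this same comparison already known, so their differences between the groups are given as a description, without p-values. The cells were pancreatic epithelial cancer cells of mouse from a mixed FVB/B6 background that carry p48Cre, ROSA_rtTAL+ and p53L+ among their alleles. In this design Cre is driven by the promoter of p48, a pancreatic transcription factor. In the first group, an antibody neutralizing the secreted ligand sonic hedgehog (SHH) was added to 4 cultures at 20 µg/mL, and in the other group 4 cultures received no antibody. No control antibody is named for that group. In both groups the cancer cells, marked with GFP, were grown for 72 h beside RFP-marked pancreatic stellate cells (PSC), which resemble fibroblasts and lay down matrix, with 0.5% dialyzed serum. The GFP cells were then sorted and only their polyA RNA was sequenced. Both groups carry the same alleles and the same co-culture, and the labels do not give the number of cell lines.

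Most of these enzymes have glutamate as a substrate or product. Aldh18a1 and then the Pycr enzymes convert glutamate to proline, Gpt2 passes its amino group to pyruvate to make alanine, Got1 and Got2 exchange it with aspartate in the cytosol and the mitochondrion, Asns makes asparagine from aspartate and glutamine, Glul makes glutamine, and Glud1 releases ammonia from glutamate in the mitochondrion. In pancreatic cancer cells this exchange is known for supplying nitrogen and for redox balance, including a route through GOT1 described in human lines. Asns is a classic target of ATF4, the transcription factor of the amino acid response, and Aldh18a1, Pycr1 and Gpt2 are also known to respond to it.

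ATF4 binds, with a C/EBP partner, a composite element whose core is TGATGNAA. The promoter windows of RefSeq (GRCm38.p6), from 250 bases before to 50 bases after each transcript start, were searched for these letters on both strands. Of the 8 enzymes 3 held a match, a count from which nothing is read, since they were picked on this contrast. Across all genes with a window, 1219 of 27025 held a match, as did 3.97% of all 32851 windows. None of the 48 windows of the 39 other enzyme and carrier genes matched to RefSeq held one, nor did the windows of Aldh18a1, Gpt2, Got2, Glul and Glud1. Among 14 genes around ATF4, described further on, 4 held a match: Atf3, Chac1, Nupr1 and Trib3. The 150 bases before the start of the 3 enzymes with a match are shown 5′ to 3′ on the strand of the gene, because they set the letters beside genes whose RNA differed; capitals mark the match. A match describes letters and is no measure of binding.
Asns, chr6:7693210-7693359, minus strand: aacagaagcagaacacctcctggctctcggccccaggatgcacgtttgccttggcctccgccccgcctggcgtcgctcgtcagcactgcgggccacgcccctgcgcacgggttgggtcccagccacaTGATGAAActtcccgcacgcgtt
Pycr1, chr11:120643749-120643898, minus strand: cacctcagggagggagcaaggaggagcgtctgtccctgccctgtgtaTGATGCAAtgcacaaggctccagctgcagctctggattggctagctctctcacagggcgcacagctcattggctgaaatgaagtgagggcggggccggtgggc
Got1, chr19:43524606-43524755, minus strand: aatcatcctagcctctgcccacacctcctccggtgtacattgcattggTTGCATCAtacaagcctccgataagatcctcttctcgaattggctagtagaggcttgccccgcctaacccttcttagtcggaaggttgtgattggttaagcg
The match lay at -23 to -16 from the start in Asns and at -103 to -96 in Pycr1, both on the strand of the gene, and at -102 to -95 on the opposite strand in Got1. The Asns match fell inside the deposited Asns gene model, which starts upstream of the RefSeq start.

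The libraries with antibody held 14953255 to 15733280 counts each and those without antibody 10009711 to 14602784, so each antibody library was deeper. Thinned to the smallest total, the 8 enzymes kept the calls reported below, and they also kept them without replicates 1 and 4 of the no antibody group. Replicate 1 without antibody stood apart from its group and had 6.48% of its counts on mitochondrial genes, against 4.1% to 5.02% in the other 7 libraries. Epithelial markers (7 genes) took 0.732% to 0.783% of counts with antibody and 0.671% to 0.781% without. Stellate markers (18 genes) took 0.144% to 0.154% and 0.144% to 0.158%, mostly through Vim, which cancer cells can also express; Dcn and Lum were at 0 in all 8 libraries and 10 of the 18 were under 1 CPM, the count scaled to a common library total. The stellate share differed by -0.00143 percentage points (exact two-sided permutation test, p = 0.714, also 0.714 adjusted over 3 library measures). Of 9 stellate markers tested, Fbln2 and Pdgfra were called lower with antibody and 7 were not called. Those 7 had positive log2 fold changes of antibody over no antibody, and the median of the 9 was 0.236. Among them, Col3a1 was at 0.66 ± 0.28 (edgeR adjusted p = 0.156) and Col1a1 at 0.36 ± 0.15 (adjusted p = 0.169). Of 7 epithelial markers Epcam was called higher. The part of these markers in the results was not tested. Of the acinar markers 5 of 8 were at 0, among them Ptf1a, and of the leukocyte markers 2 of 8; summed, acinar markers took at most 0.000375% and 0.00047%, leukocyte markers 0.00691% and 0.00728%, and endothelial markers 0.00144% and 0.00133%. As in any bulk sample, fewer cells with a transcript and less RNA per cell cannot be told apart.

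Across all genes tested, 1144 (8.4%) were called at an adjusted p under 0.05 in edgeR's quasi-likelihood test, 527 lower with antibody (3.87%) and 617 higher (4.53%), and the values of the groups did not overlap for 14.3%. Of the 8 enzymes, 6 were called lower, Glul was called higher and Glud1 was not called, and 7 had groups that did not overlap. The median log2 fold change of the 8 enzymes was -0.38, against -0.004 over all genes tested. Nothing is read from these counts or from this median, since the genes were picked on this contrast. Levels below are RPKM as deposited, counts scaled by gene length and by the library total, and fold changes are antibody over no antibody from the fit on counts.

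Transcripts of both listed steps of proline synthesis were lower with the SHH antibody. Pycr1 (ENSMUSG00000025140, chromosome 11, 120635712 to 120643769), which reduces pyrroline-5-carboxylate to proline in the mitochondrion, had 5.28, 4.34, 5.05 and 5.12 RPKM in the 4 libraries with antibody, against 8.06, 9.72, 8.31 and 9.82 RPKM without antibody. Every library with antibody lay below every library without it. The means were 4.95 ± 0.412 and 8.98 ± 0.92 RPKM (SD, n = 4 each), a log2 fold change of -0.87 ± 0.08 (SE), or 1.83-fold lower (95% interval of the fold 0.488 to 0.614), the largest size of difference among the 8 enzymes. It was also the least abundant of them, with 269 to 320 counts per library with antibody and 349 to 564 without.

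Aldh18a1 (ENSMUSG00000025007, chromosome 19, 40550257 to 40588463), which makes the pyrroline-5-carboxylate precursor from glutamate, had 42.5, 39.0, 39.0 and 40.6 RPKM with antibody, against 47.4, 57.8, 59.4 and 61.0 RPKM without. The groups did not overlap, and replicate 1 without antibody was the lowest of its group. The log2 fold change was -0.49 ± 0.06, or 1.41-fold lower (95% interval of the fold 0.651 to 0.775). The ratio of Pycr1 to Aldh18a1 in RPKM was 0.123 ± 0.0079 with antibody and 0.16 ± 0.014 without. A pseudogene on the same strand, Gm15801, overlaps Aldh18a1 and held at most 107 counts in a library.

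Of the 8 other genes of proline and ornithine metabolism, 7 were tested: 1 was lower (Odc1), 1 higher (Oat) and 5 were not called. Oat, the mitochondrial aminotransferase that links ornithine to the same precursor, rose with 83.7, 83.7, 83.1 and 81.3 RPKM in antibody libraries, against 65.1, 66.8, 72.9 and 71.8 RPKM without antibody (log2 fold change 0.25 ± 0.05, edgeR adjusted p = 0.00103). Its groups did not overlap. Odc1, which makes putrescine from ornithine, fell with 45.2, 42.7, 44.8 and 49.3 RPKM with antibody, against 54.0, 47.3, 55.9 and 49.7 RPKM without (-0.19 ± 0.06, adjusted p = 0.0394). Its groups overlapped, and the call was lost without antibody replicate 1, 2 or 3 or without replicate 3 of the other group (adjusted p 0.0929 to 0.161). The cytosolic paralog of Pycr1, listed as Pycrl, averaged 21.6 ± 0.644 RPKM with antibody and 19.6 ± 1.18 RPKM without (0.13 ± 0.07, adjusted p = 0.246).

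**Figure D1:**
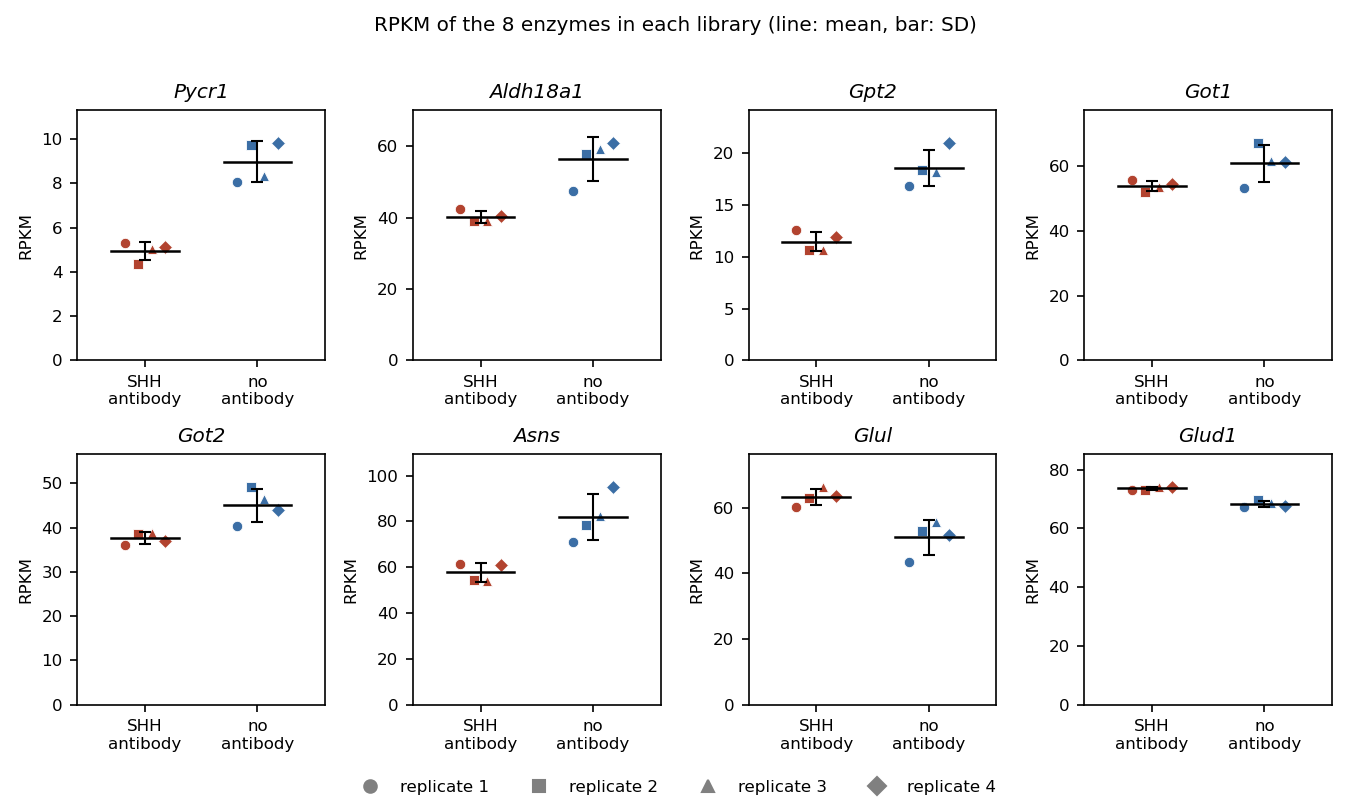
Level of the 8 enzymes in RPKM (vertical axes, linear, starting at 0) in the 4 libraries with SHH antibody (left of each panel) and the 4 without antibody (right); points are libraries and bars the mean with SD. All antibody points lie below the others for Pycr1, Aldh18a1, Gpt2, Got2 and Asns and above them for Glul and Glud1, while the Got1 groups overlap.

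The transcript of the alanine enzyme Gpt2 was lower with the antibody. Gpt2 (ENSMUSG00000031700, chromosome 8, 85492576 to 85527560), the mitochondrial alanine aminotransferase, had 12.6, 10.7, 10.7 and 11.9 RPKM with antibody, against 16.8, 18.4, 18.2 and 21.0 RPKM without. The groups were well apart, with a log2 fold change of -0.71 ± 0.07, or 1.63-fold lower (95% interval of the fold 0.559 to 0.673). Its cytosolic paralog Gpt averaged 6.47 ± 0.289 RPKM with antibody and 6.95 ± 0.207 RPKM without and was not called (-0.11 ± 0.09, adjusted p = 0.527).

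The aspartate aminotransferases showed smaller differences. Got1 (ENSMUSG00000025190, chromosome 19, 43499752 to 43524605), the cytosolic form, had 55.6, 52.1, 53.6 and 54.4 RPKM with antibody, against 53.3, 67.2, 61.7 and 61.4 RPKM without. The groups overlapped through replicate 1 without antibody, the lowest of its group. The log2 fold change of -0.18 ± 0.06, or 1.13-fold lower (95% interval of the fold 0.813 to 0.954), was called lower with all 8 libraries and in 1 of the 8 fits that left out 1 library, the fit without replicate 1 of the no antibody group (-0.24).

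Got2 (ENSMUSG00000031672, chromosome 8, 95864134 to 95888547), the mitochondrial form, had 36.0, 38.6, 38.9 and 37.1 RPKM with antibody, against 40.3, 49.2, 46.5 and 44.1 RPKM without. The groups did not overlap, and the log2 fold change was -0.26 ± 0.05, or 1.2-fold lower (95% interval of the fold 0.77 to 0.902). Got2 is uncertain, because the processed pseudogene Got2-ps1 on chromosome 5 is 99.1% identical over 1293 bases and held counts equal to 70.2% of those of Got2. Got2-ps1, looked at after its values were seen, had 73.7, 69.4, 79.6 and 69.1 CPM with antibody, against 71.9, 85.0, 74.1 and 72.6 CPM without (-0.05 ± 0.06, adjusted p = 0.671). With the counts of both added together, the log2 fold change of Got2 was -0.18, still called lower, and the groups overlapped at 166.1, 169.3, 179.9 and 165.3 CPM with antibody against 177.6, 212.4, 194.3 and 186.4 CPM without.

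Among the 12 other aminotransferases, 6 were tested, 2 were lower and 4 were not called. Psat1, which makes phosphoserine for serine synthesis with glutamate as donor, fell to 70.9 ± 2.23 RPKM with antibody, against 92.3 ± 6.51 RPKM without (-0.39 ± 0.05, adjusted p = 2.12e-05). Bcat1, the cytosolic branched-chain aminotransferase, fell to 4.56 ± 0.225 RPKM, against 6.61 ± 0.751 RPKM without antibody (-0.54 ± 0.07, adjusted p = 1.82e-05). The groups did not overlap for either gene. The mitochondrial Bcat2 averaged 12.5 ± 0.881 RPKM with antibody and 11.7 ± 0.73 RPKM without (0.08 ± 0.06, adjusted p = 0.479). Got1l1, a Got1-like gene, had 1 count in 1 antibody library and 0 in the other 7, and was not tested.

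The Asns transcript was lower with the antibody, while no gene was called on the list of other aspartate and asparagine enzymes, which leaves out Got1 and Got2. Asns (ENSMUSG00000029752, chromosome 6, 7675169 to 7693254) had 61.4, 54.5, 53.8 and 61.0 RPKM with antibody, against 71.2, 78.3, 82.5 and 95 RPKM without. The groups did not overlap, but replicates spread widely without antibody, from replicate 1, the lowest, to replicate 4, the highest. The means were 57.7 ± 4.05 and 81.7 ± 9.96 RPKM, a log2 fold change of -0.51 ± 0.07, or 1.43-fold lower (95% interval of the fold 0.636 to 0.772). Without those 2 replicates it was -0.49. Of the 11 other genes of aspartate and asparagine metabolism, 9 were tested, edgeR called 0 and 1 had an unadjusted p under 0.05. Asnsd1, named for a domain like that of Asns, averaged 11.4 ± 0.533 RPKM with antibody and 11.1 ± 1.12 RPKM without (0.02 ± 0.07, adjusted p = 0.881). The most abundant, Adss and Cad, which use aspartate for purine and pyrimidine synthesis, had fold changes of 0.02 ± 0.05 (adjusted p = 0.862) and 0.04 ± 0.06 (adjusted p = 0.747) on the log2 scale.

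The glutamine synthetase transcript was higher with the antibody. Glul (ENSMUSG00000026473, chromosome 1, 153899944 to 153909723), had 60.3, 63.1, 66.3 and 63.5 RPKM with antibody, against 43.3, 53.0, 55.7 and 51.8 RPKM without. Every antibody library lay above every library without antibody, and replicate 1 without antibody was again the lowest. The means were 63.3 ± 2.42 and 50.9 ± 5.35 RPKM, a log2 fold change of 0.31 ± 0.06, or 1.24-fold (95% interval 1.14 to 1.35). A near-identical copy, Glns-ps1, held counts equal to 4.08% of those of Glul, and adding them gave 0.30.

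Glud1 (ENSMUSG00000021794, chromosome 14, 34310727 to 34345144), glutamate dehydrogenase, had 73.1, 73.1, 74.1 and 74.1 RPKM with antibody, against 67.4, 69.6, 68.7 and 67.6 RPKM without. The groups did not overlap, since each varied little: the coefficient of variation was 0.755% with antibody and 1.43% without, against 2.73% to 8.39% and 8.4% to 12.2% for the other 7 enzymes. The log2 fold change of 0.10 ± 0.04 (1.07-fold, 95% interval 1.01 to 1.14) was not called, with all libraries or under any of 20 alternative settings.

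Of 15 other glutamine and glutamate genes, 12 were tested, 1 was called higher and 11 were not called. Gclc, the catalytic subunit that joins glutamate to cysteine for glutathione, rose to 82.3 ± 2.62 RPKM with antibody, against 72.9 ± 2.49 RPKM without (0.17 ± 0.05, adjusted p = 0.0267). Without antibody replicate 2, 3 or 4, or without replicate 2 of the other group, its adjusted p was 0.0713 to 0.116. Ctps, which uses glutamine to make CTP, averaged 41.4 ± 0.7 RPKM with antibody and 41.3 ± 0.517 RPKM without (-0.004 ± 0.04, adjusted p = 0.973). Of the 7 genes of the malate-aspartate shuttle and glutamate carriers, 6 were tested, edgeR called 0 and 0 had an unadjusted p under 0.05. Its most abundant members were Mdh2 (163 ± 5.08 RPKM with antibody and 172 ± 14.9 without, adjusted p = 0.393) and Mdh1 (62.8 ± 1.81 and 60.6 ± 1.22 RPKM, adjusted p = 0.646), the malate dehydrogenases that work beside Got2 and Got1.

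**Figure D2:**
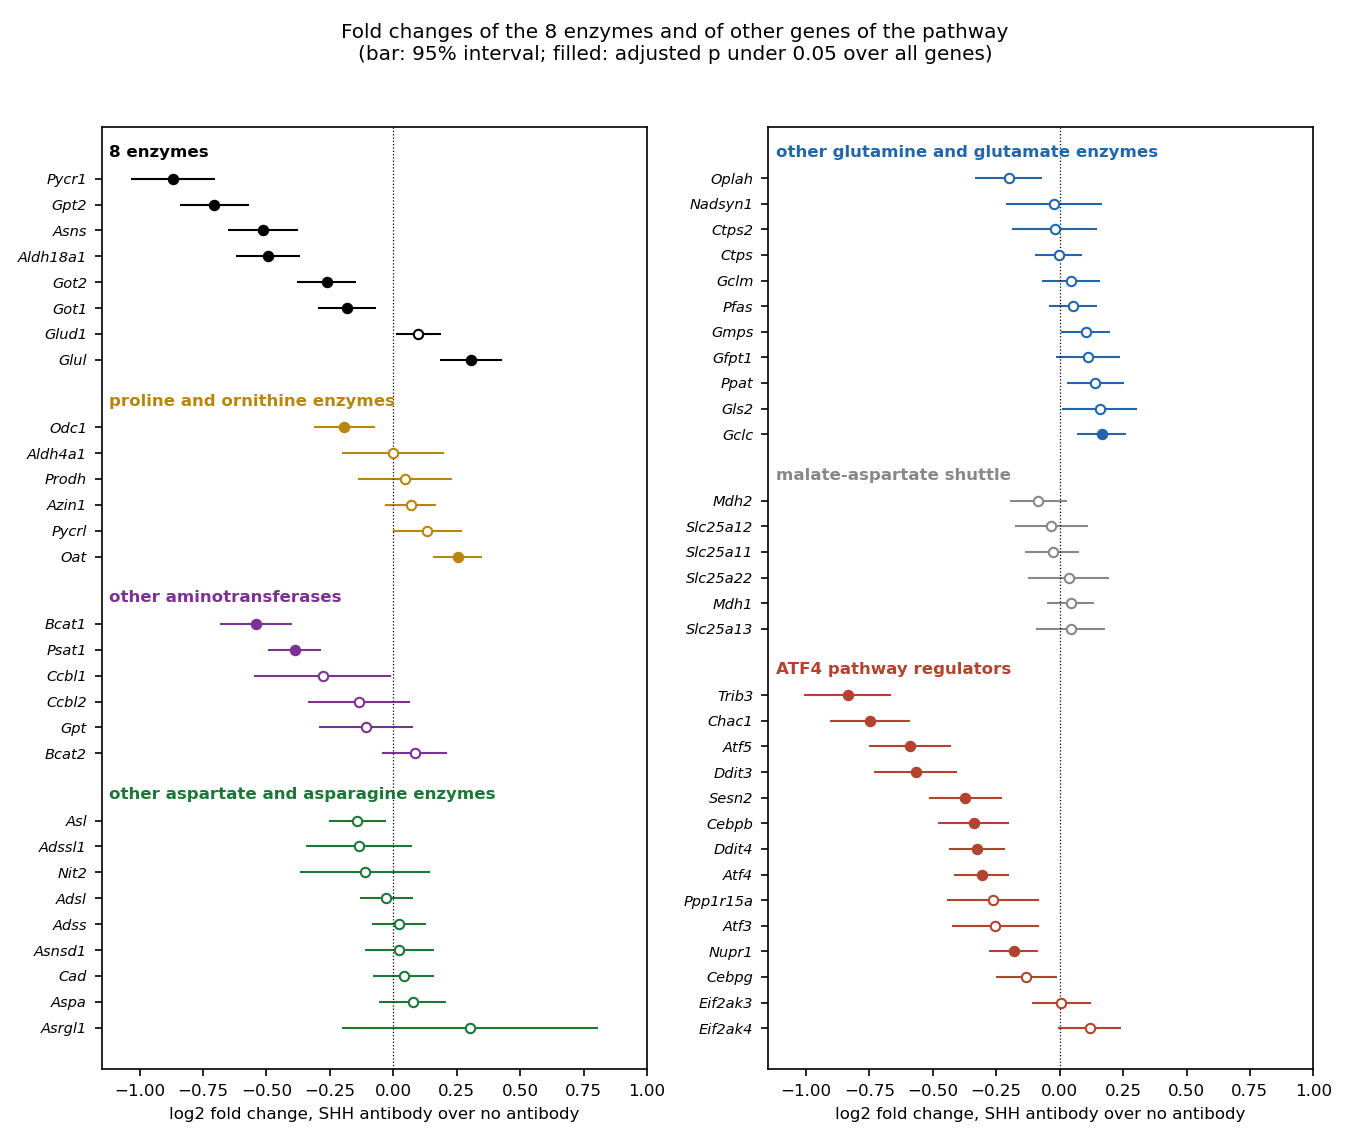
Log2 fold change of antibody over no antibody (horizontal axis, with 95% interval) for the 8 enzymes and for genes of the other 5 lists. Genes around ATF4 are shown too, labelled ATF4 pathway regulators. Filled points passed an adjusted p of 0.05 and the dotted line marks no difference. Among the 8 enzymes Pycr1 lies farthest to the left at -0.87 and Glul farthest to the right at 0.31.

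Over the 5 lists of other enzymes and carriers together, 40 of 53 genes were tested, 3 were lower (7.5%) and 2 higher (5%), and 35 were not called; 12 had an unadjusted p under 0.05 and the median log2 fold change was 0.01. These shares stand beside the 3.87% and 4.53% of all genes tested. Of 14 genes around ATF4, all tested, edgeR called 9 lower and 0 higher, 12 had an unadjusted p under 0.05 and the median was -0.32. They include Atf4 itself and genes induced by it, such as Trib3. The 5 not called were Atf3, Cebpg, Ppp1r15a, Eif2ak3 and Eif2ak4. Eif2ak3 and Eif2ak4, genes of kinases of the initiation factor eIF2, were at 0.007 ± 0.06 (adjusted p = 0.965) and 0.12 ± 0.06 (adjusted p = 0.256). This list, too, was drawn up with earlier values known. Atf4 itself fell to 219 ± 10.1 RPKM with antibody, against 269 ± 19.7 RPKM without (-0.31 ± 0.05, adjusted p = 5.00e-04). The ATF4-induced pseudokinase gene Trib3 fell by 0.84 ± 0.08 on the log2 scale (adjusted p = 9.93e-07), and Chac1, which degrades glutathione, fell by 0.75 ± 0.08 (adjusted p = 1.25e-06). Atf5, a related transcription factor, fell by 0.59 ± 0.08 (adjusted p = 2.64e-05), Ddit3, which encodes the stress factor CHOP, fell by 0.57 ± 0.08 (adjusted p = 5.03e-05), and Nupr1, a stress-induced nuclear protein, fell by 0.18 ± 0.05 (adjusted p = 0.0146).

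Per length, the order of the 8 enzymes differed between the groups. With antibody it ran from Glud1 (73.6 RPKM) through Glul (63.3), Asns (57.7), Got1 (53.9), Aldh18a1 (40.3), Got2 (37.7) and Gpt2 (11.5) to Pycr1 (4.95). Among these neighbours Glul and Asns overlapped, as did Asns and Got1. Without antibody Asns came first (81.7 RPKM), followed by Glud1 (68.3), Got1 (60.9), Aldh18a1 (56.4), Glul (50.9), Got2 (45.0), Gpt2 (18.6) and Pycr1 (8.98). There Got1 overlapped Aldh18a1, Aldh18a1 overlapped Glul, and Glul overlapped Got2. The ratio of Asns to Glul, which use and make glutamine, was 1.02, 0.863, 0.812 and 0.961 in the antibody libraries, against 1.65, 1.48, 1.48 and 1.83 without antibody. Asns thus stood near or below Glul with antibody and above it without. Both genes were picked with their fold changes known, so this shift restates those fold changes and is no separate result. The ratio of Gpt2 to Got2 was 0.306 ± 0.037 with antibody and 0.415 ± 0.045 without, and that of Got1 to Got2 was 1.43 ± 0.088 and 1.35 ± 0.034. Both ratios and the place of Got2 in the order leave out the counts of Got2-ps1. With its copies added, Got2 had 165.3 to 179.9 CPM with antibody, in place of 92.31 to 100.3 CPM. Its place in the order and both ratios are therefore uncertain.

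**Figure D3:**
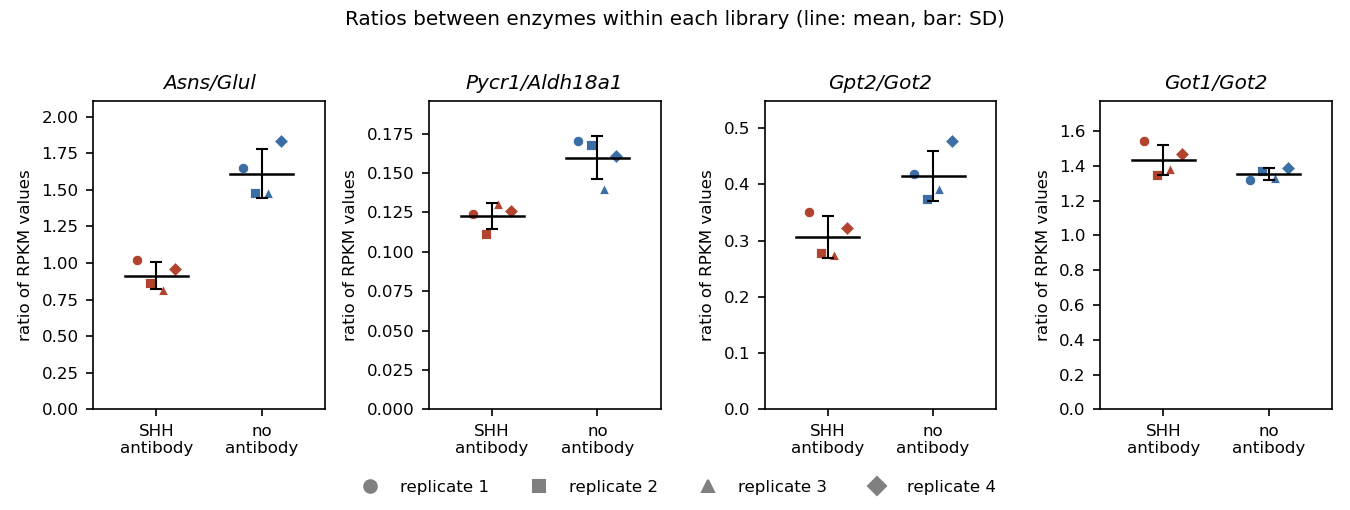
Ratios of RPKM between pairs of enzymes (vertical axes) in each library with antibody (left) and without antibody (right), with the mean and SD. Got2 is taken without the counts of Got2-ps1, so the ratios that use it are uncertain. The ratio of Asns to Glul lies at 0.812 to 1.02 with antibody and at 1.48 to 1.83 without. All ratios are descriptions of genes picked with their fold changes known.

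Within the groups, the enzymes did not all vary together from library to library. After the mean of each group was taken off, the log2 CPM of Asns correlated across the 8 libraries at r = 0.95 with Gpt2, 0.83 with Aldh18a1, 0.61 with Pycr1, 0.43 with Got1, 0.32 with Glul, -0.05 with Got2 and -0.37 with Glud1. These are descriptions over few libraries that share replicates 1 and 4 without antibody at their ends; without those 2, over 6 libraries, Gpt2 stood at 0.91, Aldh18a1 at 0.93, Pycr1 at 0.32, Got1 at 0.25 and Glud1 at -0.16. Glul then changed sign to -0.45 and Got2 stood at -0.86, so their values rest on those 2 libraries. Of 9872 genes with at least 10 CPM, the 5 closest to Asns were Ppat, Mtap, BC052040, Cul4a and Lars (r = 0.97 to 0.98, and 0.93 to 0.97 over the 6 libraries). Among these 5 Lars, the leucyl-tRNA synthetase, fell with antibody (-0.26 ± 0.06, adjusted p = 0.00564); Ppat, which begins purine synthesis with glutamine, was at 0.14 ± 0.05 (adjusted p = 0.113), and Mtap, of methionine salvage, at -0.02 ± 0.05 (adjusted p = 0.819). Closeness to Asns between libraries therefore did not always go with a called difference between the groups.

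**Figure D4:**
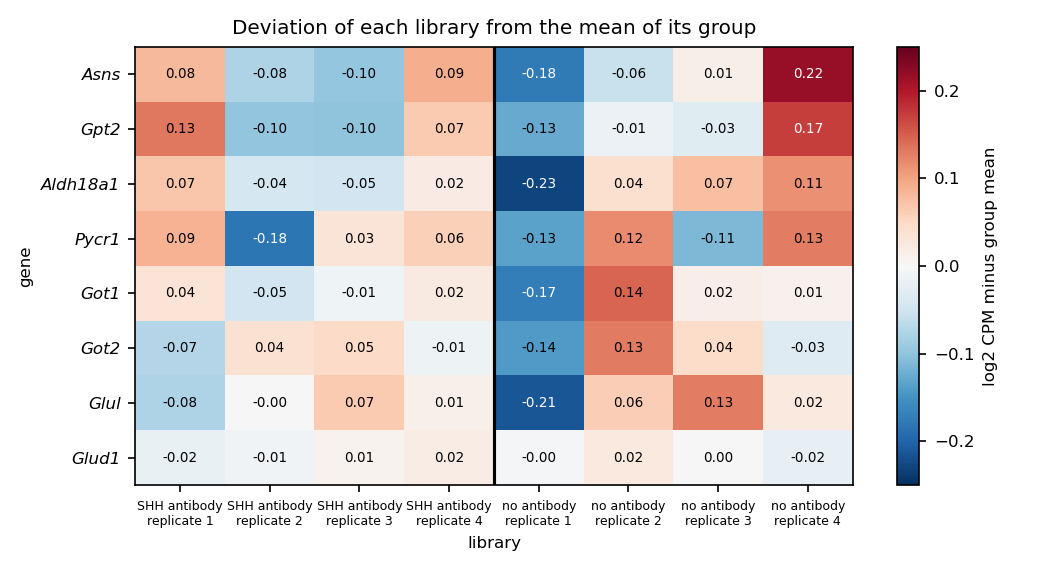
Deviation of each library from the mean of its group in log2 CPM (colour and printed value) for the 8 enzymes (rows), with antibody libraries on the left and libraries without antibody on the right. Replicate 1 without antibody is below its group mean for Pycr1, Aldh18a1, Gpt2, Got1, Got2, Asns and Glul.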

How the data were processed

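Paired-end, strand-specific polyA libraries were aligned with TopHat2 2.0.9 after base calling with CASAVA 1.8.2, on GRCm38, per the submitters' processing notes. How reads were counted, against which annotation release and with which strand setting, is not given in the sources used here. Raw counts per gene and RPKM values were deposited by the authors; for 12746 genes checked, RPKM was the count over gene length and column total. The test was the quasi-likelihood one of edgeR 4.0.16 (R 4.3.3) after filterByExpr and TMM scaling, on all 8 libraries with group as the only term, and p-values were adjusted by Benjamini-Hochberg over 13626 genes at 0.05. Intervals are 95% intervals of the fold change, built from its SE, which reflects the variation between libraries. The fit took the same dispersion for both groups, although the biological coefficient of variation was 3.25% with antibody and 6.98% without. The labels call the libraries biological replicates. A count of 3 equals 0.191 to 0.3 CPM. The script was tested on simulated data.

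The 8 members, the gene lists and the rule for named genes were chosen with earlier results of these data known. The rule names the 8 enzymes, their paralogs, up to 4 called genes of each list with the smallest p, the 2 of highest RPKM, and the 5 genes closest to Asns. Library measures were compared by exact permutation over 70 assignments, smallest possible p 0.0286. Near-identical copies were sought with a sequence search of GENCODE transcripts. Alternatives were RLE and upper quartile scaling, other filters, replicate block, DESeq2 1.42.0, limma 3.58.1 voom, log2(RPKM + 1) and log2(RPKM + 0.1) in limma, each library left out, and replicates 1 and 4 without antibody left out together; thinning and adding the copies were chosen after seeing the data. Protein sequences were not used here, and a few alleles and named genes are left unreported.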

Additional observations from a re-analysis of the deposited data

Results flagged for a closer look

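In groups of 4, a library was singled out when its gap to the nearest other exceeded 0.829 of the group's range; chance does this in about 1 in 20 groups, and 92 groups were examined, of which 4 stood out. Bcat1 in libraries without antibody had 51.9 CPM in replicate 1 and 64.35 to 65.79 CPM in the other 3, a gap of 0.896 of the range. Gpt in antibody libraries had 10.6 CPM in replicate 4 and 11.45 to 11.62 CPM in the other 3 (0.831). Got2-ps1 without antibody had 85.0 CPM in replicate 2 and 71.9 to 74.1 CPM in the other 3 (0.83). Got1l1 in antibody libraries had 1 count in replicate 1 and 0 in the other 3 (gap 1 of the range).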

How the results depend on the processing

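Under 20 alternatives each, the 8 enzymes kept the sign of their fold change, from -0.92 to -0.75 (log2) for Pycr1 and 0.08 to 0.11 for Glud1. Got1 kept its call in 9 of the 20 and lost it with the replicate block, voom and both RPKM fits, and members called lower were 5 to 6 when 1 library was left out. Of all genes, 675 were called on log2(RPKM + 1), 670 on log2(RPKM + 0.1), 679 to 1485 with 1 library left out and 2263 without replicates 1 and 4 of the no antibody group. For the other pathway genes, those called lower were 2 to 5 and those called higher 1 to 4 with 1 library left out, and 7 and 6 without those 2 replicates. Genes around ATF4 called lower were 8 to 11. The difference in stellate share ran from -0.00344 to 0.0014 percentage points with 1 library left out, and turned positive without antibody replicate 2 (0.000165) and without replicate 2 of the other group (0.0014). The cause of these moves was not tested. Libraries with the same replicate number showed no shared deviations between the groups (correlations -0.029 to 0.007). These correlations cannot tell whether cultures of the same number were set up together. With the replicate block 1005 genes were called, 977 of them shared with the fit without it. Depth limits Pycr1 most, at 269 counts in its lowest library.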

Other observations

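Ass1, which joins citrulline and aspartate to make argininosuccinate, had 1, 3, 2 and 1 counts in the antibody libraries, against 0, 1, 1 and 1 without antibody, all at or under the floor of 3 counts. Asl, the next enzyme of that route and one of the 9 tested aspartate and asparagine genes, averaged 61.4 ± 1.87 CPM with antibody and 67.9 ± 4.16 CPM without (SD, n = 4 each). Its log2 fold change in edgeR was -0.14 ± 0.05, with an adjusted p of 0.115, and the groups overlapped. Cps1, which feeds the urea cycle with carbamoyl phosphate, had 0 counts in all antibody libraries and 1 count in 1 library without antibody. The liver enzyme Tat, tyrosine aminotransferase, was at 0 in all 8 libraries. Ass1, Cps1 and Tat had too few counts to be tested.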
